A study of Mus musculus with 6 samples.

Results

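Myeloid and dendritic cell marker genes were followed in cultures of mouse Th17 cells, a class of CD4 T cell named for the cytokine interleukin 17. The set is a fixed list of 36 gene symbols that mark macrophages and monocytes (26 genes), neutrophils (2 genes) or dendritic cells (8 genes). Of these, 35 were rows of the deposited gene table of 24182 genes, and the dendritic cell lectin gene Cd209a was not analysed here. The genes were chosen by a list of symbols drawn up with their FPKM in both genotypes already known. Their values are therefore a description, and any test outcome given for them is not read as support.

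Transcripts were sequenced in bulk from total RNA in 6 libraries. Per the labels, 3 were Th17 cells with a CRISPR/Cas9 knockout of Sirt2 (KO, replicates 1 to 3), the gene of a NAD-dependent deacetylase, and 3 were control Th17 cells (WT, replicates 1 to 3). Cells of both genotypes had been stimulated for 72 hours with antibodies to CD3 (0.5 μg/mL) and CD28 (1 μg/mL), and the treatment tag reads untreated in all 6. Mouse strain, age, guide, number of clones and what the control cells received are not given in the sources used here, nor is whether replicates came from separate cultures, so their spread may be technical. Levels are in FPKM, a fragment count divided by transcript length and library size. Comparisons between genes are approximate, because gene and transcript levels did not always match. S100a8, with 1 deposited transcript, was at 0.161 FPKM as a gene and 0.230 as a transcript in KO replicate 1. Lyz2, also with 1, was at 8.31 in both.

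Macrophages, monocytes, neutrophils and dendritic cells are phagocytes of the innate immune system. They read microbes through pattern receptors such as CD14 and the C-type lectins, bind antibody through Fc receptors, and kill or digest what they take up with lysozyme, oxidants and cathepsins. Several Fc receptors and lectins signal through FCER1G or TYROBP, small adaptors that carry an ITAM, the tyrosine motif that recruits the kinase SYK. The transcription factors PU.1 (gene Spi1) and C/EBP alpha establish the myeloid lineage, and CSF1R and FLT3 are growth factor receptors that maintain macrophages and dendritic cells. T cells make some of the same products once activated, among them Cebpb, Batf3, Cd80 and Cd86.

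The libraries held T cell RNA in the main. The summed level of 14 T cell markers ran from 1462 to 1622 FPKM over the KO libraries and from 1438 to 1496 over WT, against 56.8 to 62.2 and 44.8 to 48.3 FPKM for the 35 myeloid and dendritic genes together. Sirt2, the check of the labels, ran from 10.9 to 13.5 FPKM over the KO libraries and from 19.9 to 21.9 over WT, lower in each KO library but not absent. KO replicate 3 stood apart from the other KO libraries. On log2(FPKM + 1) over 10873 genes its correlation was 0.981 and 0.979 with KO replicates 1 and 2 and 0.990 with each WT library, a correlation across genes, which are not independent replicates. Values are therefore given library by library, and counts also without KO replicate 3.

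Lyz1, Lyz2, Clec4d, Clec4e and Cybb are shown here by the DNA just before their start sites. In the lysozyme pair of neighbours the levels were far apart. In the Clec4 pair both genes were low in WT and higher in KO. The sequences are from RefSeq (GRCm38.p6) and run 5′ to 3′ on the gene's strand. The lysozyme genes Lyz1 and Lyz2 lie side by side on chromosome 10, with 5476 bases and no other gene of the table between them. Lyz2 was among the highest of the markers and Lyz1 was listed at 0 in all but one library. Their 250 bases before the start were 80.6 percent identical over 248 aligned bases. Capitals mark the longest run that the printed stretches share, of 14 bases, and the last 49 bases of the Lyz2 window are left out because a deposited Lyz2 transcript covers them.
Lyz1 (chr10:117292869-117293118, minus strand): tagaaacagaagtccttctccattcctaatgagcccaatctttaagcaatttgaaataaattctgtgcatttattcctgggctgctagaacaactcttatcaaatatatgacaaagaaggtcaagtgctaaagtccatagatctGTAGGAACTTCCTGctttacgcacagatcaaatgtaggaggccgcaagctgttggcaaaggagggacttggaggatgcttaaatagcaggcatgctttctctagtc
Lyz2 (chr10:117282322-117282522, minus strand): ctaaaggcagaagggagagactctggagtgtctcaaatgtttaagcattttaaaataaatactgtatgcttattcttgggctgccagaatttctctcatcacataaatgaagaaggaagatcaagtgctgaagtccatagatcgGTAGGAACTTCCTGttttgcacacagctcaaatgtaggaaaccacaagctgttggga

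Clec4d and Clec4e point towards each other on chromosome 6, with a gap of 6524 bases and no other gene of the table between them, and both were higher in all KO libraries. Cybb, on the X chromosome, had the second largest ratio between the genotypes among listed genes with a WT mean above 0. In these stretches capitals mark matches to 4 motifs searched on both strands. The motifs were PU.1 (GAGGAAG), C/EBP (TTNNGNAA), AP-1 (TGANTCA) and the NF-kB consensus, and overlapping matches were kept.
Clec4d (chr6:123261857-123262106, plus strand): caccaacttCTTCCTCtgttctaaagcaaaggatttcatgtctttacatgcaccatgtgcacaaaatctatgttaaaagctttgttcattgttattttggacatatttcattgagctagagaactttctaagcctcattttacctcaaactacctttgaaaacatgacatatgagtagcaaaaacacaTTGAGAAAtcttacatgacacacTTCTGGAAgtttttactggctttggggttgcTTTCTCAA
Clec4e (chr6:123289872-123290121, minus strand): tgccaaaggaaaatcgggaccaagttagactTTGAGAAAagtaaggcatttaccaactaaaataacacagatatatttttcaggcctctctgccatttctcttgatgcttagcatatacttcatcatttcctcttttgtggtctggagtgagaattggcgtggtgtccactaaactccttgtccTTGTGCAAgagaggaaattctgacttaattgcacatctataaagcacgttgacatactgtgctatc
Cybb (chrX:9469325-9469574, minus strand): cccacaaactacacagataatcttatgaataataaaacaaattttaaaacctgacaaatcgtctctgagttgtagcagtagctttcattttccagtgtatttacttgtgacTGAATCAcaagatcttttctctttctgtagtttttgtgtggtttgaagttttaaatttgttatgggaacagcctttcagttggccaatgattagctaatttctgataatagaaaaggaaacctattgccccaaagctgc
Of the 36 genes, 29 had an entry in the promoter table, 11 of them among the genes higher in all KO libraries and 17 among the other measured genes. The PU.1 motif was found in 2 of the 11, in 5 of the 17 and in 10.6 percent of all 32851 promoter entries of the same length. The C/EBP motif was found in 6 of 11, 8 of 17 and 36.8 percent. The AP-1 motif was found in 3 of 11, 3 of 17 and 6.75 percent, and the NF-kB consensus in 0 of 11, 1 of 17 and 7.25 percent. Cd14 had no entry. Clec7a, Fcer1g, Fcgr2b and Mpeg1, among the 11, had no match to any of the 4 motifs, while the rest of the 11 had a match. A match says only that these letters are in the window.

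Across the whole list, 13 of 35 genes were higher in all KO libraries than in all WT libraries and 1, Cd86, was lower. Over all genes of the table these shares were 3.79 percent higher and 5.26 percent lower. Among genes whose mean reached 0.1 FPKM the counts were 10 and 1 of 20 listed genes, beside 4.64 and 6.80 percent of all such genes. Since this contrast was in view when the list was drawn up, nothing is read from that gap. By subset, the count was 12 of 26 macrophage and monocyte genes, 0 of 2 neutrophil genes and 1 of 7 measured dendritic cell genes. The median difference in log2(FPKM + 1), KO minus WT, was 0.11 over the 35 genes, 0.13 for macrophages and monocytes, 0.15 for neutrophils and 0.02 for dendritic cells, against -0.01 over all genes. The neutrophil median was 0.03 without KO replicate 1, and the dendritic cell median was -0.0053 without KO replicate 3 and -0.094 over the 3 genes whose mean reached 0.1 FPKM. Of the 13, 11 had a ratio of mean FPKM of at least 3. Cd68 had a ratio of 1.12, and Clec4d, listed at 0 in all WT libraries, had none. Without KO replicate 3 the count was 14, beside 12.3 percent of all genes. Since a separated gene stays separated when a library is removed, that count could not fall and says nothing of stability. In bulk RNA, a few myeloid cells in a culture and a low level of these transcripts in every T cell cannot be told apart.

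**Figure D1:**
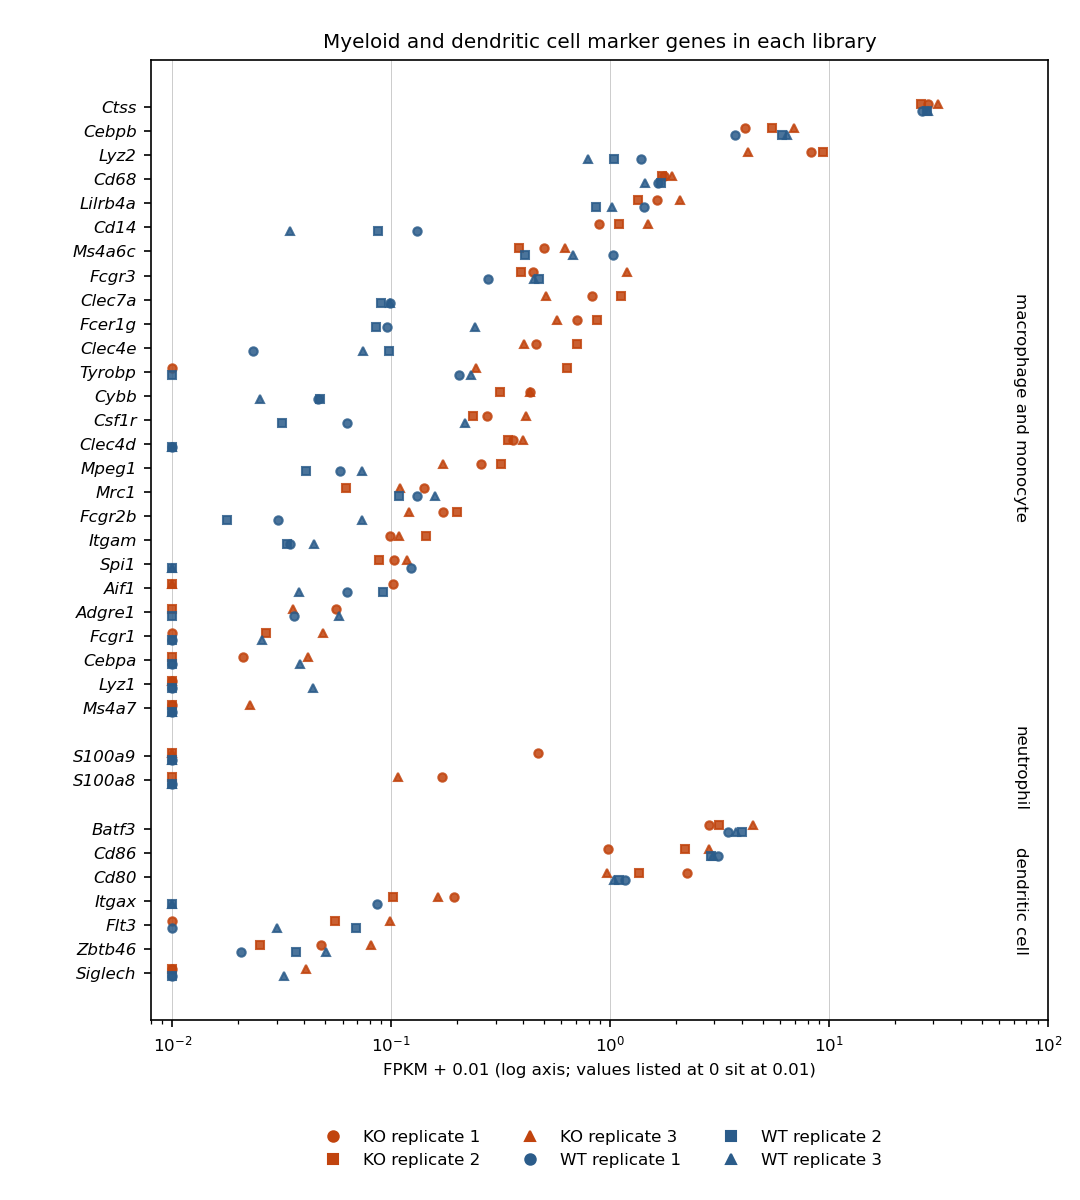
FPKM of each of the 35 measured genes (rows, by subset and mean level) in the 3 KO and 3 WT libraries, on a log axis with 0.01 added; each point is one library. KO points lie to the right of all WT points for 13 genes, Lyz2, Cd14 and Clec7a among them, while Ctss, Cebpb and Batf3 overlap between genotypes.

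Most of these genes were scarce. In every library 23 of the 35 stayed under 1 FPKM, and 9 of the 13 higher genes were among those 23. The files hold no read counts, so depth is unknown and how many fragments lie behind such values cannot be told. Zeros are called listed at 0 for the same reason. A standard filter of 1 FPKM in at least 3 libraries kept 8 genes (Ctss, Cebpb, Lyz2, Batf3, Cd86, Cd68, Lilrb4a and Cd80). With limma on log2(FPKM + 1), 0 of these 8 were called at an adjusted p under 0.05 over all 10873 genes tested. An unadjusted p under 0.05 was reached by 2 of the 8, beside 610 of the 10873. The list was drawn up with these values known, so no outcome for the 8 is read as a test of them. Over all genes tested there were 12 calls (0.110 percent), of which 10 were higher in KO (0.0920 percent) and 2 lower (0.0184 percent). That total was 0 without KO replicate 1 and 1088 without KO replicate 3, where Lyz2 was called. It was 6 without KO replicate 2, and 6, 1 and 4 without WT replicates 1, 2 and 3. In the authors' deposited table, which keeps scarce genes, 7 of the 35 were marked significant (Lyz2, Cybb, Cd14, Clec7a, Clec4e, Clec4d and Mpeg1), all of them as up. That table marked 71 genes in all (0.294 percent), 57 of them up (0.236 percent). Genes left unmarked had q-values down to 4.72e-09, but among those with a fold of 2 or more either way the lowest was 0.054, so the mark went with both q and fold.

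Antimicrobial and lysosomal effectors came first in level. Lyz2, the lysozyme that cleaves bacterial cell walls (ENSMUSG00000069516, GRCm38 chromosome 10, 117277331 to 117282321, minus strand), had 8.31, 9.44 and 4.24 FPKM in the KO libraries, in the order of their numbers, against 1.38, 1.03 and 0.782 in WT. The lowest KO library was KO replicate 3, and it still lay above every WT library. Mean FPKM was 7.33 ± 2.73 in KO and 1.07 ± 0.300 in WT (SD, n = 3), a ratio of 6.88, or 3.98 for KO replicate 3 alone. Lyz1, its neighbour, was listed at 0 in 5 libraries and at 0.0339 FPKM in WT replicate 3. Of the 1267 windows of 50 bases in the Lyz2 transcript, 15.4 percent also occur in Lyz1, and how reads shared between such copies were counted is not given.

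Cybb encodes the catalytic subunit of the phagocyte NADPH oxidase, which makes superoxide. It was at 0.420, 0.304 and 0.422 FPKM in KO and 0.0361, 0.0373 and 0.0151 FPKM in WT. All 3 KO libraries lay together, and the ratio of means was 12.9. Mpeg1, a pore-forming protein of macrophages, was at 0.247, 0.307 and 0.163 FPKM in KO and 0.0484, 0.0309 and 0.0636 FPKM in WT, a ratio of 5.02.

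The other lysosomal markers differed little between genotypes. Ctss, the cathepsin that trims the invariant chain of MHC class II, was the most abundant gene of the list at 28.4, 26.3 and 31.4 FPKM in KO and 26.6, 28.0 and 28.4 FPKM in WT. Its groups overlapped. Cd68, a lysosomal membrane glycoprotein, was at 1.75, 1.71 and 1.92 FPKM in KO and 1.64, 1.70 and 1.44 FPKM in WT. These Cd68 groups did not overlap, but the nearest KO and WT libraries were almost level and the ratio was 1.12. Within Ctss, transcript ENSMUST00000116304 made up 93.1 percent of the summed transcript FPKM in KO and 82.4 percent in WT. The other, ENSMUST00000015667, was at 1.75, 1.03 and 3.20 FPKM in KO and 4.67, 7.02 and 2.97 FPKM in WT, so that KO replicate 3 lay above WT replicate 3. Both have 8 exons and a length of 1355 bases.

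C-type lectin receptors bind sugars or lipids of microbes. Clec7a, the beta-glucan receptor dectin-1 (chromosome 6, 129461591 to 129472777), had 0.818, 1.11 and 0.500 FPKM in KO and 0.0890, 0.0798 and 0.0891 FPKM in WT, a ratio of 9.41. Its protein-coding transcript ENSMUST00000112076 was at 0.758, 0.440 and 0.550 FPKM in KO and 0.103, 0.0925 and 0.103 in WT, lowest among KO in replicate 2. Transcript ENSMUST00000195589, typed as a polymorphic pseudogene, was at 0.0992, 0.816 and 0.0133 FPKM in KO and listed at 0 in WT. Clec4e, the receptor Mincle, was at 0.447, 0.697 and 0.394 FPKM in KO and 0.0133, 0.0874 and 0.0647 FPKM in WT, a ratio of 9.30. Clec4d, the lectin of the neighbouring gene, was at 0.349, 0.331 and 0.390 FPKM in KO and listed at 0 in all 3 WT libraries, so no fold is given. These 3 lectin genes were thus low but present in each KO library. Mrc1, the mannose receptor of tissue macrophages, went with neither genotype (0.0522 to 0.131 FPKM over KO, 0.0991 to 0.149 over WT). The summed lectin level averaged 1.77 ± 0.403 FPKM for KO and 0.264 ± 0.0391 for WT (SD, n = 3).

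Fc receptors and ITAM adaptors gave a mixed picture. Fcer1g, the common gamma chain of Fc receptors, was at 0.696, 0.858 and 0.563 FPKM in KO and 0.0859, 0.0749 and 0.230 FPKM in WT, a ratio of 5.41. Fcgr2b, the inhibitory receptor for IgG, was at 0.162, 0.191 and 0.111 FPKM in KO and 0.0203, 0.00770 and 0.0634 FPKM in WT, a ratio of 5.08. Both were separated between genotypes, whereas the remaining members were not. Tyrobp, the adaptor DAP12, was listed at 0 in KO replicate 1 and WT replicate 2 and reached 0.627 and 0.233 FPKM in KO replicates 2 and 3, against 0.193 and 0.222 FPKM in WT replicates 1 and 3. Fcgr3, an activating IgG receptor, was at 0.434, 0.380 and 1.19 FPKM in KO and 0.266, 0.464 and 0.441 FPKM in WT, so that only KO replicate 3 stood out. Fcgr1, the high-affinity IgG receptor, did not exceed 0.0388 FPKM in any library.

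Among other surface receptors, Cd14, the co-receptor for bacterial lipopolysaccharide (chromosome 18, 36725067 to 36726798), had the largest ratio, 15.6, among listed genes with a WT mean above 0. It was at 0.881, 1.09 and 1.49 FPKM in KO and 0.121, 0.0769 and 0.0245 FPKM in WT. Unlike Lyz2, it was highest in KO replicate 3, where the ratio to the WT mean was 20.1. The integrin chains Itgam (CD11b, of monocytes and neutrophils) and Itgax (CD11c, of dendritic cells) are near neighbours on chromosome 7. Itgam was at 0.0882, 0.134 and 0.0982 FPKM in KO and 0.0246, 0.0236 and 0.0345 FPKM in WT. Itgax was at 0.184, 0.0923 and 0.154 FPKM in KO, at 0.0757 FPKM in WT replicate 1 and listed at 0 in WT replicates 2 and 3. Both were higher in all KO libraries. Lilrb4a, an inhibitory receptor that activated T cells can also carry, was at 1.63, 1.34 and 2.08 FPKM in KO and 1.42, 0.857 and 1.01 FPKM in WT, and its groups overlapped through WT replicate 1. Ms4a6c was at 0.490, 0.372 and 0.611 FPKM in KO and 1.02, 0.399 and 0.669 FPKM in WT, also overlapping.

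Spi1, Cebpa, Adgre1, Csf1r, Flt3 and Zbtb46, which define or mark the lineages, were scarce, at no more than 0.405 FPKM in any library. Csf1r, which set that level, is one of the 13 higher genes. Clec4d, Mpeg1, Fcgr2b, Itgam and Itgax, also among the 13, did not exceed it either. Spi1, the gene of PU.1, was at 0.0927, 0.0782 and 0.108 FPKM in KO, at 0.114 FPKM in WT replicate 1 and listed at 0 in WT replicates 2 and 3. Cebpa did not exceed 0.0316 FPKM and the macrophage marker Adgre1 (F4/80) did not exceed 0.0478 FPKM. Csf1r was at 0.265, 0.227 and 0.405 FPKM in KO and 0.0528, 0.0218 and 0.207 FPKM in WT, a ratio of 3.18 in which KO replicate 2 and WT replicate 3 nearly met. Flt3 and the dendritic cell factor Zbtb46 overlapped between genotypes, at up to 0.0891 and 0.0707 FPKM. The transcription factors that activated T cells share were far higher and did not separate. Cebpb was at 4.12, 5.50 and 6.96 FPKM in KO and 3.70, 6.10 and 6.40 FPKM in WT. Batf3, needed for cross-presenting dendritic cells, was at 2.84, 3.14 and 4.51 FPKM in KO and 3.45, 4.02 and 3.75 FPKM in WT.

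**Figure D2:**
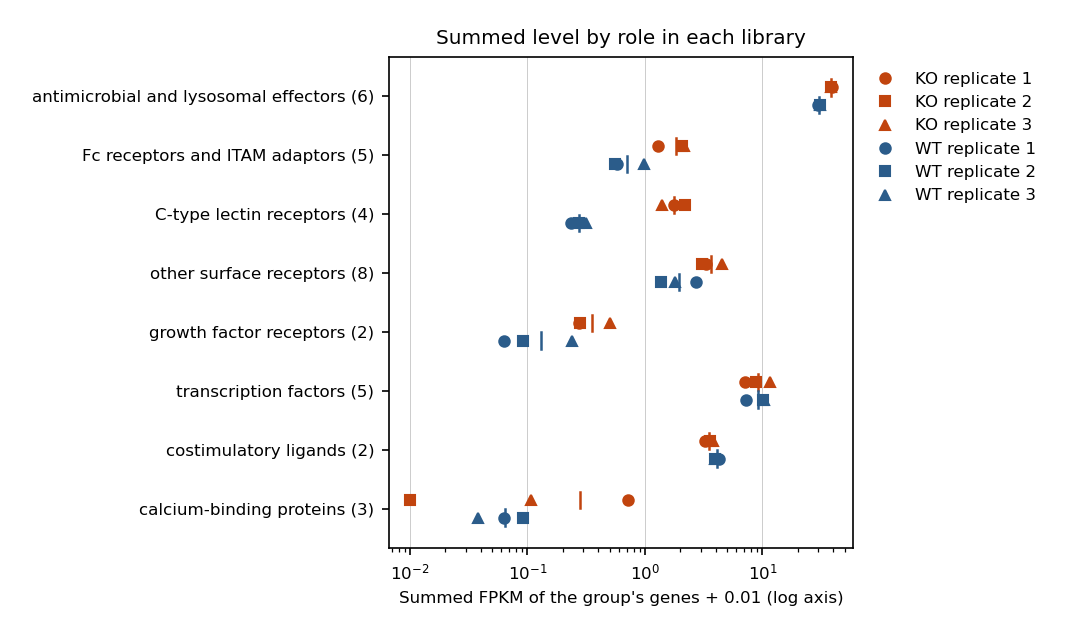
Summed FPKM of the measured genes of each role (number of genes in brackets) in each library, on a log axis with 0.01 added; points are libraries and vertical ticks are group means. The C-type lectin sum is 1.39 to 2.19 FPKM over KO and 0.224 to 0.302 over WT, while the transcription factor sums overlap.

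The costimulatory ligands CD80 and CD86, which engage CD28 and CTLA-4, differed in pattern. Cd86 was at 0.969, 2.20 and 2.82 FPKM in KO and 3.11, 2.89 and 2.94 FPKM in WT, the single gene of the list that was lower in all KO libraries. Most of its gap came from KO replicates 1 and 2, and KO replicate 3 lay just under the lowest WT library. Cd80 was at 2.25, 1.35 and 0.957 FPKM in KO and 1.16, 1.09 and 1.04 FPKM in WT, so that KO replicates 1 and 2 lay above WT and KO replicate 3 below. The leading Cd86 transcript, ENSMUST00000089620, held 89.0 percent of the gene's transcript FPKM in KO and 93.5 percent in WT. The 2 neutrophil genes, S100a8 and S100a9, encode both chains of calprotectin, an abundant cytosolic protein of neutrophils. S100a8 was at 0.161 and 0.0976 FPKM in KO replicates 1 and 3, S100a9 at 0.461 FPKM in KO replicate 1, and both were listed at 0 elsewhere. The 9 genes not yet given in full (Adgre1, Aif1, Cebpa, Fcgr1, Flt3, Mrc1, Ms4a7, Siglech and Zbtb46) reached at most 0.149 FPKM, with 21 of 54 values listed at 0, and all overlapped between genotypes.

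**Figure D3:**
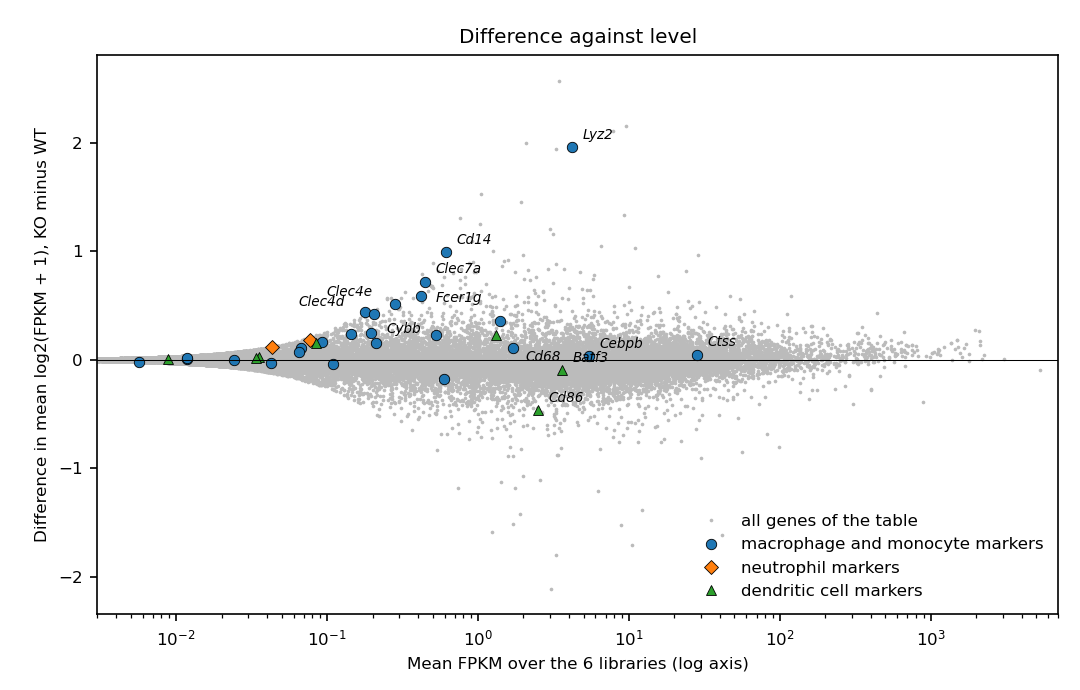
Difference in mean log2(FPKM + 1), KO minus WT, against the mean FPKM over the 6 libraries (log axis), for all genes of the table (grey) and the listed genes by subset. Lyz2 (1.96) and Cd14 (0.99) lie at the upper edge of the cloud and Cd86 (-0.46) below 0. At low levels the added 1 FPKM compresses the scale, so ratios are larger than these differences show.

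The 13 higher genes did not rank the KO libraries in one order. KO replicate 2 was the highest library for 7 of them, Lyz2, Clec7a, Clec4e, Mpeg1, Fcer1g, Fcgr2b and Itgam. KO replicate 3 was the highest for 5, Cd14, Cybb, Clec4d, Csf1r and Cd68, and KO replicate 1 for Itgax. Summed over the 13, the level was 14.6, 16.5 and 10.8 FPKM in KO and 3.59, 3.18 and 3.01 FPKM in WT. This gap follows from how the 13 were picked. Over all 35 genes the ratio of summed means was 1.26. The libraries also differed in a trend with transcript length. Over 10873 genes, Spearman's rho between length and the library's difference from the WT mean was -0.33, -0.47 and 0.23 for KO replicates 1, 2 and 3. For WT replicates 1, 2 and 3, each against the mean of the other WT libraries, it was 0.25, 0.0065 and -0.24. With these trends removed, an alternative added after the data were seen, 12 of the 13 genes remained separated, all but Cd68.

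Partners of these genes were measured beside them. For each list that follows, the share of all genes that were higher in all KO libraries was 3.79 percent. The share that were lower was 5.26 percent. An unadjusted p under 0.05 was reached by 610 of the 10873 genes tested by limma. Of 6 other NADPH oxidase genes 1, Rac2, was higher in all KO libraries and 0 were lower, and 0 of the 5 tested were called by limma (1 at an unadjusted p under 0.05). T cells express several of them. Cyba, which pairs with the Cybb product in the membrane, ran from 89.4 to 111 FPKM over KO and 87.1 to 103 over WT, and the GTPase gene Rac2 was at 150, 160 and 158 FPKM in KO against 138, 145 and 142 in WT (limma adjusted p = 0.843). Of 13 measured genes linked to ITAM signalling, 4 were higher in all KO libraries and 0 lower. Syk was at 0.212, 0.110 and 0.226 FPKM in KO and 0.0470, 0.0635 and 0.0914 FPKM in WT. The others that were higher, Blnk, Card9 and Pira2, were near 0, at no more than 0.0774, 0.124 and 0.0261 FPKM in any library. Btk overlapped, and Plcg2, the only one of the 13 tested, was at 4.83 ± 0.860 and 4.93 ± 0.195 FPKM (limma adjusted p = 0.963).

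Cd14 works with receptors and adaptors that read lipopolysaccharide and other Toll-like receptor ligands. Of 12 such genes measured 0 were higher and 1 was lower in all KO libraries, counts near the shares over all genes, and limma called 0 of 6 tested (1 at an unadjusted p under 0.05). The adaptor gene Myd88 averaged 30.4 ± 1.43 FPKM over KO and 30.7 ± 0.687 over WT, and Ticam1 and Irak4 overlapped too. Of 12 lysosomal genes 1 was higher and 1 lower in all KO libraries, with 0 of 11 tested called (1 at an unadjusted p under 0.05). Ctsz ran from 81.1 to 90.6 FPKM over KO and from 77.5 to 87.1 over WT. Ctsd was at 54.7 ± 3.52 and 50.8 ± 3.25 FPKM, and Psap at 71.5 ± 5.91 and 73.2 ± 1.14 FPKM. The authors' deposited table marked 0 genes of the oxidase, ITAM, Toll-like receptor and lysosomal lists as significant. Of the lists given below, it marked 2 of 18 further macrophage and monocyte genes and 3 of 16 further dendritic cell genes. It also marked 4 of 9 NK and CD8 cell genes, 1 of 12 B cell genes and 1 of 7 MHC class II genes. No gene of the remaining lists was marked, and the share over all genes was 0.294 percent.

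Further myeloid genes, outside the 36, gave 2 limma calls. Il1b, the gene of interleukin 1 beta, was at 0.571 ± 0.185 FPKM in WT and 3.29 ± 0.285 in KO (limma adjusted p = 0.00675), a call lost without WT replicate 2 (0.0502). Ccl22, a chemokine of macrophages and mature dendritic cells, was at 0.764 ± 0.0481 FPKM in WT and 5.83 ± 0.847 in KO (limma adjusted p = 0.00278). Both genes were under 1 FPKM in every WT library, so they entered the test only because they were higher in KO. Neither could be tested with any one KO library left out. Their lists were also chosen with earlier results known, so these 2 calls are not read as support. Of 18 further macrophage and monocyte genes measured, 5 were higher and 1, Apoe, was lower in all KO libraries. Apoe was at 1.02, 1.15 and 1.01 FPKM in KO against 1.30, 1.53 and 1.67 in WT (limma adjusted p = 0.843), and Tnf, which T cells also make, was at 28.8 ± 9.56 and 29.7 ± 1.15 FPKM. Of 16 further dendritic cell genes 5 were higher and 1 lower, and of 10 further neutrophil genes 1, Cxcl2, was higher and 0 lower. Irf4, Ccr7 and Id2, the most abundant of the dendritic list and all expressed by T cells, were not called.

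Markers of other cell types were measured in the same libraries. The sum of 9 NK and CD8 cell genes ran from 24.7 to 27.5 FPKM over KO and from 9.13 to 10.0 over WT, with 5 of 9 higher in all KO libraries. Gzmb made up most of the gap, at 16.3 ± 4.13 FPKM in KO against 2.80 ± 0.156 in WT, while Cd8b1 was at 4.11 ± 1.57 and 4.16 ± 0.635 FPKM. Gzmb was also the list's single call (limma adjusted p = 0.00675), lost without KO replicate 1 (0.0688), WT replicate 2 (0.0502) or WT replicate 3 (0.0543). The sum of 12 B cell genes ran from 23.8 to 29.7 over KO and from 20.4 to 21.3 over WT, mostly Ighm, with 4 of 12 higher. For 7 MHC class II genes the sums were 35.6 to 38.5 and 31.6 to 33.1 FPKM, with 3 higher, and for 7 mast cell and basophil genes 0.414 to 0.772 and 0.272 to 0.375 FPKM, with 1 higher. The erythroid and stromal sum overlapped (2.26 to 4.04 and 2.89 to 4.61 FPKM), with 0 of 10 genes separated. It was mostly Pecam1, at 2.83 ± 0.897 FPKM in KO and 2.96 ± 0.254 in WT. Among 10 Th17 genes 1 was higher and 1 lower in all KO libraries, with sums of 373 to 531 over KO and 522 to 546 over WT. The part of other cell types in the myeloid values was not tested.

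**Figure D4:**
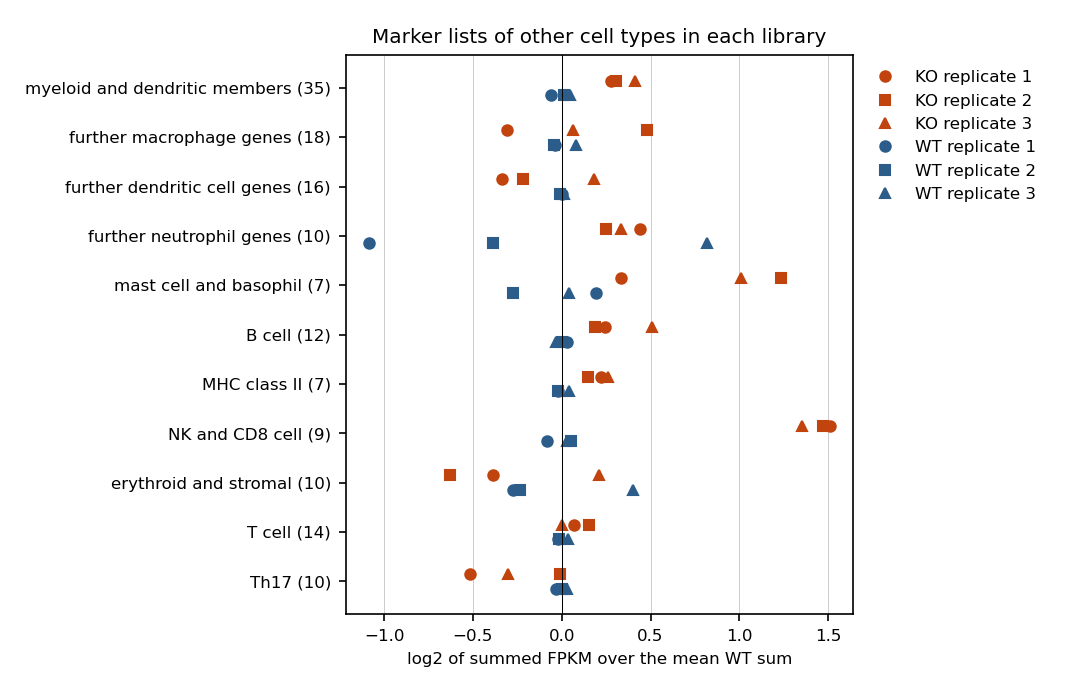
Log2 of the summed FPKM of each marker list over the mean WT sum, per library (number of measured genes in brackets). The sum of the 35 myeloid and dendritic genes is 56.8 to 62.2 FPKM over KO and 44.8 to 48.3 over WT. The NK and CD8 list lies farthest to the right in all KO libraries. The erythroid and stromal list, mostly Pecam1, overlaps between genotypes.

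The authors' deposited enrichment table carried these genes into many terms. It set 60 annotated significant genes against 15267 annotated genes, and 131 of its 835 Gene Ontology terms held at least 1 of the 7 marked members. Of the 20 terms with the smallest deposited p-value, 14 held one. In the term innate immune response (deposited p-value 8.52e-06), 5 of 9 significant genes were Cd14, Clec4d, Clec4e, Clec7a and Cybb. In carbohydrate binding (deposited p-value 1.39e-06), 3 of 7 were Clec4d, Clec4e and Clec7a, beside Fcer2a, Klra3, Klra6 and Klrk1. In defense response to bacterium (deposited p-value 3.59e-06), 3 of 6 were Clec4d, Clec4e and Lyz2. These p-values are the authors' and rest on the same libraries.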

How the data were processed

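The authors deposited gene and transcript tables in FPKM with one column per library, per the file headers, plus a fold column (a ratio of KO over WT mean FPKM), its log2, and p-value and q-value columns made by a tool that the sources used here do not give. Tools listed in the submitters' processing notes, with no roles stated, are HISAT2 and StringTie, cutadapt and FastQC, edgeR and DESeq2. The notes give the build as mm9. Of 73430 deposited transcripts found in GENCODE M21, 73203 had its GRCm38 chromosome, start, end and strand, as did all 86 transcripts of the listed genes, so coordinates are given as GRCm38. The authors also deposited Gene Ontology enrichment p-values and other numbers (genes per term). In their gene table the highest q of a gene marked significant was 0.049, and genes of lower q with a fold under 2 either way were left unmarked.

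Depth is unknown. At most 23 percent of 300 low values of single-exon genes fell within 0.02 steps of a whole multiple of one step, so whole reads were not recovered. Groups came from sample titles. The genotypes were compared on log2(FPKM + 1) by limma 3.58.1 under R 4.3.3 (mean trend, Benjamini-Hochberg adjustment over all genes tested), after a filter of at least 1 FPKM in 3 or more libraries. The fit was tested on simulated data. "Called" is used of an adjusted p under 0.05. Same-numbered libraries were not treated as pairs (correlations of deviations 0.00668, -0.0170 and -0.0756 for replicates 1, 2 and 3). A gene counted as higher when its lowest KO value exceeded its highest WT value.

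The listed genes and all marker lists were chosen with earlier results of these data known. Full values were given for 17 genes, those whose mean reached 0.5 FPKM and those named by rule (Lyz1, Tyrobp, Spi1, Csf1r, S100a8, S100a9). A further 9 were added after their values were seen, because their groups did not overlap. Of the other lists, called genes and the 3 of highest mean could be named, plus Il1b and Ccl22, which the rule set by name. Alternatives were median scaling, other filters, no mean trend, a pseudocount of 0.1, a stricter adjusted p of 0.01, the replicate number as a block, leaving out each library, and removal of length trends (added after seeing the data). Promoters were 250 bases before the RefSeq start. Figures were drawn with matplotlib 3.10.9.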

Additional observations from a re-analysis of the deposited data

How the results depend on the processing

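The count of listed genes higher in all KO libraries was 13 with median scaling, 12 with length trends removed, and 10 of 20 among genes whose mean reached 0.1 FPKM, where all genes gave 4.64 percent. Leaving out a library can only keep or raise this count, which then ran from 13 to 16, so that range says nothing of stability. The count of all genes called by limma ran from 0 to 1088 over the same omissions: 0, 6 and 1088 without KO replicates 1, 2 and 3, and 6, 1 and 4 without WT replicates 1, 2 and 3. At adjusted p under 0.01 it was 7. The labels do not say whether the replicate numbers pair the libraries, and with the replicate block 13 genes were called, against 12 without the block. Of the listed genes, Lyz2 was called in that fit, without KO replicate 3 and at a pseudocount of 0.1, and Clec4d without the filter. As the list was drawn up with these values known, those calls are not read as tests. The median log2 difference was 0.24 for all listed genes, 0.25 for macrophage and monocyte genes and -0.094 for dendritic cell genes at a mean of at least 0.1 FPKM, where the dendritic set held 3 genes, and the neutrophil genes gave no value. At a pseudocount of 0.1 these medians were 0.45, 0.55 and 0.16, and 0.81 for the neutrophil genes, because a smaller addition compresses scarce genes less. With single libraries left out the medians ran from 0.08 to 0.12 for all, 0.094 to 0.18 for macrophage and monocyte, 0.03 to 0.22 for neutrophil and -0.01 to 0.02 for dendritic cell genes. Without KO replicate 3 the dendritic median and the Ctss and Cebpb differences were on the other side of 0. So were Cebpb without WT replicate 1, Batf3 without KO replicate 1 and Tyrobp without KO replicate 2, while the S100a9 difference was 0 without KO replicate 1 and that of Lyz1 without WT replicate 3. The call of Il1b was lost without the filter (limma adjusted p = 0.0721) and without WT replicate 2 (0.0502), and neither it nor Ccl22 was tested without any one KO library.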

Other observations

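Complement C1q, a product of tissue macrophages, was found in one KO and one WT library. C1qa was at 0.280 FPKM in KO replicate 3 and 0.264 FPKM in WT replicate 3, C1qb at 0.161 and 0.256 FPKM, and C1qc at 0.0805 and 0.161 FPKM, and all 3 genes were listed at 0 in the other libraries. These genes were singled out after their values were seen. Among the 13 higher listed genes, KO replicate 3 was the lowest KO library for 6, Lyz2, Clec7a and Clec4e among them. It was the highest for 5, Cd14 and Cybb among them. Hemoglobin genes also peaked in WT replicate 3, with Hbb-bs at 0.500 FPKM and Hba-a1 at 0.354 FPKM, against at most 0.0263 and 0.0578 FPKM elsewhere.

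Among further myeloid genes whose groups did not overlap, also picked after their values were seen, Fscn1, an actin-bundling protein of mature dendritic cells, was at 0.952, 0.778 and 0.796 FPKM in KO and 0.183, 0.178 and 0.125 FPKM in WT. The chemokine gene Ccl9 was at 0.900, 0.567 and 0.450 FPKM in KO and 0.0704, 0.141 and 0.0831 FPKM in WT. Ly6c2, a marker of inflammatory monocytes that T cells can share, was at 0.346, 0.644 and 0.285 FPKM in KO and 0.0897, 0.00978 and 0.175 FPKM in WT. Sirpa, an inhibitory receptor of myeloid cells, was at 0.280, 0.189 and 0.169 FPKM in KO and at most 0.0484 FPKM in WT. Xcr1, the chemokine receptor of cross-presenting dendritic cells, went the other way, at 0.0476 to 0.0644 FPKM over KO and 0.0745 to 0.115 over WT.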
